A study of Mus musculus with 207 samples.

Results

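The jejunal expression of 9 genes listed as Paneth cell genes was followed across 6 diets: 9 of 55536 genes in the jejunum table, in 70 libraries of the 207 in the series. They were chosen by name, with earlier results of these data known. The genes are Lyz1, Ang4, Mptx1, Mptx2, Itln1, Mmp7, Defa24, Defa29 and Defa34. All 9 passed the filter on low counts, as did 16992 genes in all. The tissue was the jejunum of C57BL/6 mice, with 1 library per animal identifier. The groups were WPI FAT-20 (12 libraries), WPI FAT-40 (12), WPI FAT-55 (12), CAS FAT-20 (11), CAS FAT-40 (12) and CAS FAT-55 (11), where the labels put the protein level at 30 in every diet and give the fat level as 20, 40 or 55. The abbreviations are taken to mean whey protein isolate (WPI) and casein (CAS), from knowledge of the study. No unit for a level, and no age, sex, duration of feeding, batch or date, is in the labels. The series title asks how protein kind and amount change what fat in the diet does to the animal and its microbes. The comparisons are FAT-55 or FAT-40 against FAT-20 on each protein, and WPI against CAS at each fat level.

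Paneth cells sit at the base of the small intestinal crypts, between the stem cells, and release granules of antimicrobial proteins into the crypt lumen. They also make signals, Wnt3 among them, that support the neighbouring stem cells. Their number and their alpha-defensin repertoire are known to rise along the mouse small intestine towards the ileum. Lyz1 encodes lysozyme P, which cleaves bacterial cell walls. Defa24, Defa29 and Defa34 encode alpha-defensins, called cryptdins in mice, which are small peptides that disrupt microbial membranes. Mmp7 encodes matrilysin, the protease that cuts mouse pro-defensins into their active form. Ang4 is a secreted ribonuclease of the angiogenin family with bactericidal activity, and Itln1 encodes intelectin, a lectin that binds microbial sugars. Mptx1 and Mptx2 encode mucosal pentraxins, secreted proteins of which Mptx2 is used as a Paneth cell marker in mice.

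Mptx1 and Mptx2 lie on chromosome 1 of GRCm38, at 174330518 to 174332873 on the plus strand and at 173274382 to 173277777 on the minus strand. They are near copies of each other, and the results below set them apart, so the stretches around their starts are shown, each running from 250 bases before the RefSeq start to 50 after it. Both come from RefSeq on GRCm38.p6, Mptx1 from chr1:174330268-174330567 on the plus strand and Mptx2 from chr1:173277707-173278006 on the minus strand, and capitals mark their longest shared run of 61 bases.
Mptx1: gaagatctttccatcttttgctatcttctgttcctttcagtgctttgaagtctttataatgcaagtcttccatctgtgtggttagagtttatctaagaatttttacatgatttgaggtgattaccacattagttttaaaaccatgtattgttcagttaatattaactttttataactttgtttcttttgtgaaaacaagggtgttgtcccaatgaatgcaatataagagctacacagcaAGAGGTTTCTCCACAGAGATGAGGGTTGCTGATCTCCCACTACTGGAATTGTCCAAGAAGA
Mptx2: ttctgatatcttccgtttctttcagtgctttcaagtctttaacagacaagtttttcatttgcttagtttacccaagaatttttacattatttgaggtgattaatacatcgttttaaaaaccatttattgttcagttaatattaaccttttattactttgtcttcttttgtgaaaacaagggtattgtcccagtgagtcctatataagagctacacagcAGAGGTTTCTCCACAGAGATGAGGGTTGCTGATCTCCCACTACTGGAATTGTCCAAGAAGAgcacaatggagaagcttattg
The windows were 76.7% identical over 322 aligned positions (247 matches), and each had a GC content of 35.0%, against a median of 52.7% over 32851 promoters. Every other pair of the 7 windows held for 6 of the genes (Mmp7 has 2 starts) was identical at 42.7% to 49.5% of positions. The Mmp7 window of the upstream start, at chr9:7691840-7692139 on the plus strand, is shown because it was the window among the 7 that held both motifs searched.
Mmp7: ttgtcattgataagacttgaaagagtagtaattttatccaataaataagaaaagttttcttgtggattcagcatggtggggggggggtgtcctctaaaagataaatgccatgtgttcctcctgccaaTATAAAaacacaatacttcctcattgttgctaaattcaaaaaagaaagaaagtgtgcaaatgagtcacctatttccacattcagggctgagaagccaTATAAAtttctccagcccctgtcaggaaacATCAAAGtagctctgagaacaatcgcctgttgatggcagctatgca
Capitals mark TATAAA, the core of the TATA box, and ATCAAAG, the core bound by TCF/LEF factors of the Wnt pathway. Both were searched on either strand, and the 2 motifs do not overlap in this window. TATAAA stood 123 and 26 bases before the start, and ATCAAAG stood after it. Of the 6 genes with a window, 1 held ATCAAAG (Mmp7) and 2 held TATAAA (Mptx1, Mmp7), against 3.73% and 13.6% of all promoters. The TATAAA matches of Mptx1 lay on the strand opposite to the gene. RefSeq windows were found for Lyz1, Ang4, Mptx1, Mptx2, Itln1 and Mmp7.

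The remaining genes lie apart from these, Lyz1 on chromosome 10 (117287797 to 117292868), Ang4 on 14 (51763878 to 51773590), Itln1 on 1 (171518122 to 171535294) and Mmp7 on 9 (7692090 to 7699585). The 3 defensin genes share the defensin cluster of chromosome 8, within 409585 bases, where 22 protein-coding Defa genes are annotated. Reads from near-identical copies may be counted for another gene or left out, since 8.0038% of reads in the jejunum table matched several places. How far each gene can be told apart was gauged on its longest GENCODE M21 transcript, cut into overlapping runs of 50 bases. All runs of Mmp7 (100%) were found in no other gene, as were 99% for Itln1, 95.3% for Ang4 and 83.9% for Lyz1, whose other runs matched Lyz2. The share was 82.1% for Mptx1 and 82% for Mptx2, each of which shared its other runs with the other. It was 71.9% for Defa24, 56.6% for Defa29 and 16% for Defa34, so the Defa34 count is the least certain of the 9. Mmp7 also overlaps AV064505 on the opposite strand and Defa29 overlaps Gm23561 on the same strand, and the strand setting of the counting is not given in the sources used here.

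Libraries held 17.502 to 23.808 M reads on genes. Levels are given as CPM, reads per M reads on genes after TMM scaling. Libraries differed in markers of other tissue. The fat cell marker Adipoq had a median of 0 CPM in both FAT-40 and both FAT-55 groups, against 9.04 CPM in WPI FAT-20 and 4.52 CPM in CAS FAT-20. An effect of diet and a difference in the piece of tissue taken cannot be told apart here. The ileal gene Fabp6 was above 100 CPM in 2 libraries of WPI FAT-20 (replicates 1 and 9), and its median was 0.0729 to 0.522 CPM in the 6 diets. The identifiers fall into 24 stems (an identifier without its last digit), 4 per diet, and the labels do not say what a stem is. Together the 9 genes took 0.143% to 2.64% of the reads on genes per library. In liver, used as a tissue without Paneth cells, Mptx1, Mptx2 and the 3 defensins had 0 reads in 70 of 70 libraries, a count that allows up to 3 reads per library.

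Per length, Defa24 was the most abundant, with a median of 7689 CPM per kb of exon over the 70 libraries. It was followed by Lyz1 (2946), Itln1 (1225), Ang4 (454.5), Mptx2 (92.0), Defa29 (91.4), Mmp7 (57.0), Defa34 (30.6) and Mptx1 (2.04 CPM per kb). Mptx1 was counted from a median of 36 reads and a lowest of 8, against 83124.5 for Lyz1, so counting error is largest for Mptx1. Summed over the 9, the median was 13350 CPM in WPI FAT-20, 8287 in WPI FAT-40 and 6009 in WPI FAT-55. On casein it was 14640 CPM in CAS FAT-20, 8455 in CAS FAT-40 and 7668 in CAS FAT-55. The FAT-55 median was 0.45 of the FAT-20 median on WPI and 0.524 of it on CAS. In whole-tissue libraries such as these, fewer Paneth cells and less RNA per Paneth cell cannot be told apart.

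The 4 most abundant genes made up similar shares of the sum on every diet. Lyz1 made up 45.5% of the summed CPM in WPI FAT-55 and 41.3% in WPI FAT-20, and 42.5% in CAS FAT-55 and 40.4% in CAS FAT-20. Defa24 made up 33.5% to 36.5% in the 6 diets, Itln1 15.1% to 16.4% and Ang4 3.65% to 4.12%. The shares of the scarcer genes varied more between diets. Mptx2 made up 0.205% in WPI FAT-55 against 1.01% in WPI FAT-20, and Defa29 0.248% against 1.35%. The proportion of Mptx1 was larger at the higher fat level, 0.0402% in WPI FAT-55 against 0.0109% in WPI FAT-20.

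**Figure D1:**
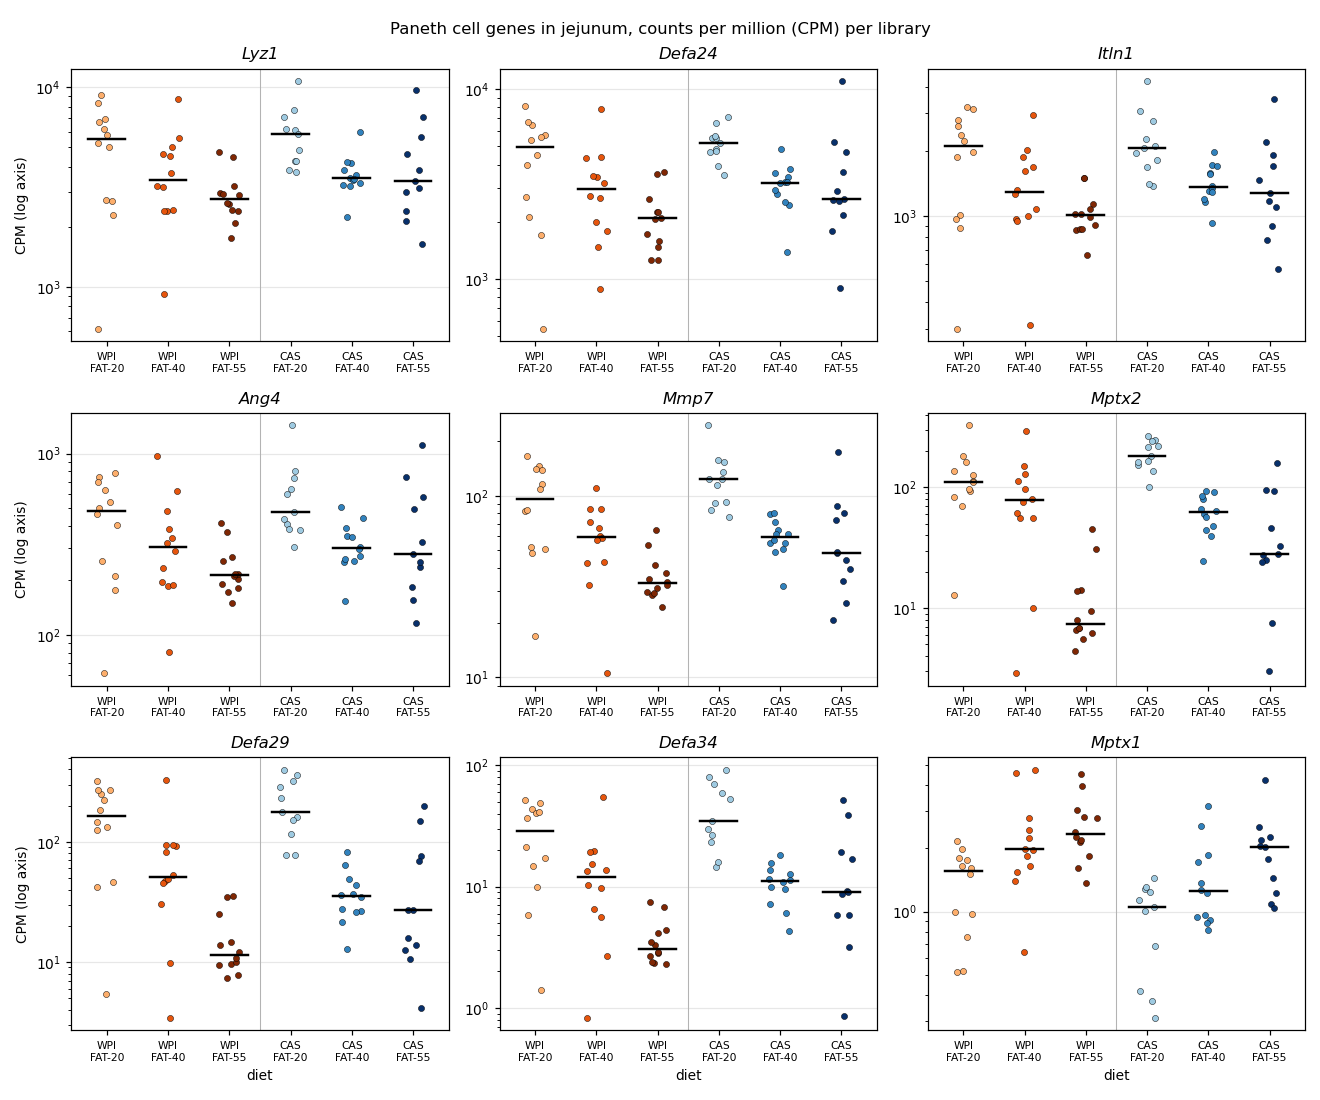
CPM of each gene (log axis) in every jejunum library by diet, with a bar at the median of the 11 or 12 libraries. The medians of 8 genes lie highest at FAT-20 and lowest in WPI FAT-55, and Mptx1 runs the other way, with its highest median (2.33 CPM) in WPI FAT-55.

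On the WPI diets, all 9 genes differed between FAT-55 and FAT-20: 8 fell and Mptx1 rose. The test was edgeR's quasi-likelihood F-test with Benjamini-Hochberg adjustment over all 16992 genes, called at an adjusted p under 0.05, and it called 30.8% of all genes in this comparison. The median log2 fold change was -1.05 over the 9 and -0.0308 over all genes tested. Mptx2 had 4.40 CPM at the lowest, 7.42 at the median and 45.6 at the highest in WPI FAT-55, against 12.9, 112 and 326 CPM in WPI FAT-20. In 8 of 12 WPI FAT-55 libraries Mptx2 was below the lowest WPI FAT-20 library, and the ranges overlap through that library (replicate 10); 0.253% of all genes lay without overlap lower in WPI FAT-55. The log2 fold change was -3.25 ± 0.46 (SE, adjusted p = 3e-07), which is 0.105 of the WPI FAT-20 level.

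Defa29 ran from 7.37 over a median of 11.5 to 35.6 CPM in WPI FAT-55, against 5.46, 165 and 320 CPM in WPI FAT-20. All 12 WPI FAT-55 libraries lay below the WPI FAT-20 median, and the ranges overlap through 1 low library of WPI FAT-20 (replicate 10). Its log2 fold change was -3.39 ± 0.51 (SE, adjusted p = 1.2e-06). Defa34 ran from 2.30 over 3.09 to 7.46 CPM in WPI FAT-55, against 1.41, 28.9 and 51.4 CPM in WPI FAT-20, and changed by -2.88 ± 0.46 (SE, adjusted p = 3.1e-06). Here too every WPI FAT-55 library was below the WPI FAT-20 median.

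Mmp7, the defensin-processing protease, ran from 24.3 over 32.9 to 65.2 CPM in WPI FAT-55, against 16.9, 95.8 and 164 CPM in WPI FAT-20, a log2 fold change of -1.38 ± 0.27 (SE, adjusted p = 6.5e-05). Defa24 fell by 1.05 ± 0.28 on the log2 scale (adjusted p = 0.0031), and Ang4 by 0.94 ± 0.31 (adjusted p = 0.015). For Itln1 the drop was 0.91 ± 0.25 (adjusted p = 0.0036). Lyz1 had 1752 CPM at the lowest, 2765 at the median and 4733 at the highest in WPI FAT-55, against 615, 5507 and 9115 CPM in WPI FAT-20. Its log2 fold change was -0.81 ± 0.26 (SE, adjusted p = 0.014), the smallest drop of the 8. Mptx1 was the gene that rose: it ran from 1.37 over 2.33 to 4.52 CPM in WPI FAT-55, against 0.513, 1.56 and 2.18 CPM in WPI FAT-20. The log2 fold change of Mptx1 was 0.93 ± 0.26 (SE, adjusted p = 0.0041).

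With a random effect for identifier stem (limma-voom), 5 of the 9 passed. The drops of Lyz1, Ang4, Itln1 and Defa24 did not pass there (adjusted p = 0.18, 0.14, 0.083 and 0.054, log2 fold changes from -0.84 to -0.58). In sums by stem 9 of the 9 passed, where that fit called 3411 of 19838 genes. Stems accounted for 0% of the spread within a diet for Lyz1, Ang4 and Itln1, and 3.19% for Defa24. With fat cell and smooth muscle scores as covariates, 1 of the 9 passed (Mptx2), where that fit called 247 genes in all against 5231 without the covariates. The median log2 fold change of the 9 was -0.815 with the covariates and -1.05 without them.

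On the CAS diets, 4 genes fell between FAT-55 and FAT-20 and Mptx1 rose, against 27.7% of all genes called. The median log2 fold change was -0.58 over the 9 and -0.00878 over all genes. Mptx2 had 3.02, 28.1 and 160 CPM (lowest, median and highest) in CAS FAT-55, against 102, 182 and 266 CPM in CAS FAT-20, a log2 fold change of -1.95 ± 0.45 (SE, adjusted p = 0.00081). In 10 of 11 CAS FAT-55 libraries Mptx2 was below every CAS FAT-20 library, and 0.0353% of all genes lay without overlap lower in CAS FAT-55. Defa29 had 4.17, 27.1 and 197 CPM in CAS FAT-55, against 77.3, 176 and 397 CPM in CAS FAT-20, and changed by -1.96 ± 0.50 (SE, adjusted p = 0.0024). Defa34 had 0.863, 9.01 and 51.7 CPM in CAS FAT-55, against 14.4, 34.9 and 91.5 CPM in CAS FAT-20, and changed by -1.55 ± 0.44 (SE, adjusted p = 0.0064). One CAS FAT-55 library (replicate 11) held the highest value of that group for 8 of the 9 genes, all but Mptx1, and without it 8 of the 9 passed in place of 5.

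Mmp7 had 20.7, 48.2 and 174 CPM in CAS FAT-55, against 76.7, 124 and 244 CPM in CAS FAT-20, a log2 fold change of -1.04 ± 0.28 (SE, adjusted p = 0.0034). The 4 abundant genes did not pass on CAS. Their log2 fold changes were -0.47 ± 0.27 for Lyz1 (adjusted p = 0.2), -0.51 ± 0.29 for Defa24 (0.19), -0.56 ± 0.32 for Ang4 (0.19) and -0.58 ± 0.26 for Itln1 (0.087). The medians of Lyz1 were 3400 CPM in CAS FAT-55 and 5801 CPM in CAS FAT-20, and 6 of 11 CAS FAT-55 libraries were below the lowest CAS FAT-20 library. Mptx1 had 1.04, 2.02 and 4.25 CPM in CAS FAT-55, against 0.312, 1.05 and 1.45 CPM in CAS FAT-20, a log2 fold change of 1.09 ± 0.28 (SE, adjusted p = 0.0026). With the fat cell and smooth muscle covariates 2 of the 9 passed on CAS, Mptx2 and Mptx1, and 1098 genes in all against 4711. The median log2 fold change of the 9 was -0.462 with the covariates and -0.58 without them.

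The drop on CAS was already present at FAT-40, where 7 genes fell and 0 rose, against 25.1% of all genes called. This comparison shares the CAS FAT-20 libraries with the previous one. Mptx2 had 24.5, 62.1 and 93.3 CPM in CAS FAT-40, so the 12 libraries lay entirely below the 11 of CAS FAT-20 (101.7 to 266.1 CPM), as was so for 0.271% of genes tested. Defa29 had 12.9, 35.4 and 81.8 CPM in CAS FAT-40, and 11 of 12 libraries were below the lowest of CAS FAT-20. The log2 fold changes were -2.48 ± 0.50 for Defa29 (adjusted p = 0.00022), -2.04 ± 0.44 for Defa34 (0.00054), -1.60 ± 0.43 for Mptx2 (0.0044) and -1.08 ± 0.27 for Mmp7 (0.0023). Ang4 changed by -0.91 ± 0.31 (adjusted p = 0.027), and this call was lost without CAS FAT-20 replicate 5 (-0.70, 0.098), where 4 of the 9 passed. Defa24 (-0.74 ± 0.29, adjusted p = 0.0492) and Itln1 (-0.65 ± 0.25, adjusted p = 0.0495) passed narrowly, and these calls were lost when 1 library was left out in 17 and 14 of 23 cases. Lyz1 (-0.67 ± 0.27, adjusted p = 0.056) and Mptx1 (0.66 ± 0.28, 0.07) did not pass. In sums by stem and with a random effect for stem 4 of the 9 passed, Mptx2, Mmp7, Defa29 and Defa34, and Ang4 (adjusted p = 0.079 and 0.12), Itln1 (0.081 and 0.17) and Defa24 (0.094 and 0.12) did not. Defa24 and Itln1 were also lost with median-of-ratios scaling, without the filter and with pan-epithelial library sizes (adjusted p = 0.052 to 0.088), and Defa24 with DESeq2 (0.053). With the covariates, 0 of the 9 passed in this comparison, where that fit called 164 genes in all. The median log2 fold change of the 9 was -0.546 with the covariates and -0.907 without them.

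Between WPI FAT-40 and WPI FAT-20 no gene fell by the test and Mptx1 rose (0.77 ± 0.26, adjusted p = 0.021), against 25.8% of all genes called. This call was lost with a random effect for stem (0.76, adjusted p = 0.066) and with the fat cell and smooth muscle covariates (0.89, adjusted p = 0.25), which left 0 of the 9, though the direction held. Without the 2 libraries high in Fabp6 the Mptx1 value was 0.64 (adjusted p = 0.073), and without WPI FAT-40 replicate 7 or 10 it was 0.64 or 0.62 (0.059 and 0.067). The count here rests on single libraries: it was 4 without WPI FAT-20 replicate 10 or WPI FAT-40 replicate 4, 3 without WPI FAT-20 replicate 3 or 7, 2 without WPI FAT-20 replicate 9 or WPI FAT-40 replicate 2 or 8, and 0 without WPI FAT-40 replicate 7. Mptx2 had 2.87, 78.6 and 296 CPM in WPI FAT-40, and its log2 fold change was -0.42 ± 0.41 (SE, adjusted p = 0.47). In WPI FAT-55 against WPI FAT-40, 3 genes fell and 0 rose, against 0.653% of all genes called. Of these, Mptx2 changed by -2.83 ± 0.45 (SE, adjusted p = 0.00041), Defa29 by -2.28 ± 0.49 (0.013) and Defa34 by -1.94 ± 0.45 (0.025). Summed by identifier stem none of the 3 passed (adjusted p = 0.066, 0.32 and 0.35, with values from -2.84 to -1.94), and that fit called 0 genes in all. Without WPI FAT-40 replicate 4 Defa29 and Defa34 did not pass either (-1.78 and -1.51, adjusted p = 0.071 and 0.11), leaving 1 of the 3, nor did Defa34 without WPI FAT-55 replicate 11 (-1.90, 0.051). Between CAS FAT-55 and CAS FAT-40, 0 of the 9 passed, against 0.0294% of all genes (0.0177% lower), and none had an unadjusted p under 0.05; under DESeq2 the count was also 0.

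**Figure D2:**
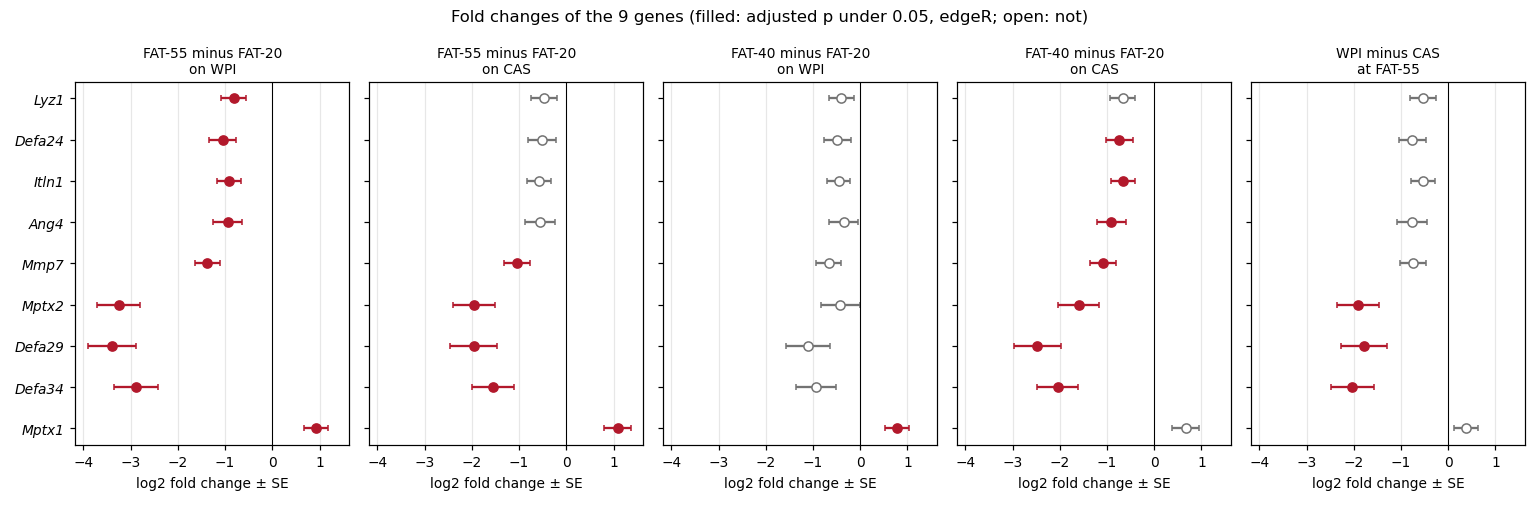
Log2 fold change ± SE of the 9 genes in 5 comparisons, with the first-named diet minus the other, filled where the adjusted p was under 0.05. In the panels of FAT-55 against FAT-20, Mptx2, Defa29 and Defa34 lie farthest left, from -3.39 to -1.55. For FAT-40 against FAT-20 on WPI, Mptx2 (-0.42) lies right of Mmp7 (-0.67). Mptx1 lies right of 0 in every panel.

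Whether the fat effect depended on protein was tested as the difference of the 2 fat effects, WPI minus CAS. For FAT-55 against FAT-20 that difference was -1.31 ± 0.61 for Mptx2 (adjusted p = 0.8), -1.43 ± 0.68 for Defa29 (0.81) and -1.33 ± 0.62 for Defa34 (0.81). The edgeR count was 0 of the 9 and 0% of all genes, with 3 of the 9 and 1016 genes at an unadjusted p under 0.05, and DESeq2 called 0 of the 9 and 4 genes. So a larger drop on WPI than on CAS was not shown. For FAT-40 against FAT-20 the count was again 0 of the 9, and 0.0118% of all genes were called. There 2 of the 9 had an unadjusted p under 0.05, and DESeq2 called 0 of the 9 and 18 genes in all.

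At FAT-55 the 2 proteins were compared directly, and 3 genes were lower on WPI, against 3.7% of all genes called (2.81% lower). Mptx2 had a median of 7.42 CPM in WPI FAT-55 and 28.1 CPM in CAS FAT-55 (log2 fold change -1.90 ± 0.44, adjusted p = 0.0055). Defa34 was at 3.09 and 9.01 CPM in these groups (-2.03 ± 0.46, adjusted p = 0.0042), and Defa29 at 11.5 and 27.1 CPM (-1.78 ± 0.49, adjusted p = 0.025). The groups overlap for all 3 (0.0471% of all genes lay without overlap lower in WPI FAT-55), and every WPI FAT-55 library was below the CAS FAT-55 median for Defa34 and 10 of 12 were for Mptx2 and Defa29. Leaving out CAS FAT-55 replicate 7, 10 or 11 lost the Defa29 call (adjusted p = 0.051, 0.078 and 0.15, with a smallest change of -1.34). None of the 3 passed with a random effect for stem (adjusted p = 0.28 for Mptx2, 0.45 for Defa34 and 0.59 for Defa29) or in sums by stem (0.09, 0.091 and 0.2), where the values ran from -1.96 to -1.10. With the fat cell and smooth muscle covariates Mptx2 and Defa34 passed (-1.64 and -1.58, adjusted p = 0.03 and 0.033) and Defa29 did not (-1.10, 0.21). Lymphocyte markers moved the same way in this comparison: 7 of 11 B and plasma cell markers and 6 of 10 T cell markers were lower on WPI. Their summed levels were 3653 to 6828 CPM in WPI FAT-55 against 993 to 13200 CPM in CAS FAT-55 for B and plasma cells, and 63.5 to 102 CPM in WPI FAT-55 against 73.2 to 183 CPM in CAS FAT-55 for T cells, and their part in the result was not tested. Stems accounted for 14.1% of the spread of Mptx2 within a diet, 9.33% for Defa34 and 6.56% for Defa29.

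At FAT-20 and at FAT-40 WPI and CAS did not differ by the test for any of the 9, against 6.23% (2.66% higher and 3.57% lower) and 0.571% of all genes called. At FAT-40 0.00589% of all genes lay without overlap lower in WPI. At an unadjusted p under 0.05 there were 0 of the 9 at FAT-20 and 2 at FAT-40 (Mptx1 and Defa29), and DESeq2 called 0 at both levels. The log2 fold change of Mptx2 was -0.60 ± 0.42 at FAT-20 and 0.58 ± 0.42 at FAT-40, and that of Lyz1 was -0.19 ± 0.27 and 0.07 ± 0.26. Averaged over the fat levels, Mptx1 was higher on WPI (0.52 ± 0.15, adjusted p = 0.013) and Defa34 lower (-0.78 ± 0.25, adjusted p = 0.024), against 15.3% of all genes called (6.5% higher and 8.83% lower). Neither passed with a random effect for stem (adjusted p = 0.053 and 0.14), and the Defa34 call was lost without CAS FAT-55 replicate 11 (-0.65, 0.061).

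By median level, both FAT-20 groups came first and WPI FAT-55 last for 8 of the 9 genes, and most neighbours in the order did not differ by the test. For Lyz1 no neighbouring pair passed, with adjusted p from 0.19 to 0.95. For Mptx2, Defa29 and Defa34 the step that passed was the last one, WPI FAT-55 below CAS FAT-55. For Itln1 it was CAS FAT-40 below CAS FAT-20 (adjusted p = 0.0495). For Mptx1 WPI FAT-55 came first (2.33 CPM) and CAS FAT-20 last (1.05 CPM), and the step that passed was WPI FAT-40 above WPI FAT-20.

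Ratios within a library compare the genes with one another, and this test was added after the data had been seen. Each of 8 genes was set against Lyz1 in the same library, and the log2 ratios at FAT-55 and FAT-20 were compared by a two-sided permutation test with 100000 resamples, adjusted over the 16 ratios tested. The log2 ratio of Mptx2 to Lyz1 was -8.14 ± 0.90 in WPI FAT-55 and -5.37 ± 0.47 in WPI FAT-20 (SD, n = 12 each), a difference of -2.77 (adjusted p = 5.3e-05). It was -6.92 ± 0.95 in CAS FAT-55 and -4.92 ± 0.37 in CAS FAT-20 (n = 11 each), a difference of -2.00 (adjusted p = 5.3e-05). The raw p behind these was 2e-05, the smallest the resamples can give.

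The log2 ratio of Mmp7 to Lyz1 was -6.32 ± 0.16 in WPI FAT-55 and -5.70 ± 0.23 in WPI FAT-20, a difference of -0.61 (adjusted p = 5.3e-05). It was -6.17 ± 0.17 in CAS FAT-55 and -5.54 ± 0.09 in CAS FAT-20, a difference of -0.63 (adjusted p = 5.3e-05). Defa29 differed by -2.49 on WPI and -2.08 on CAS (adjusted p = 5.3e-05 and 9.1e-05), and Defa34 by -1.90 and -1.45 (5.3e-05 and 0.00036). Mptx1 rose against Lyz1 by 1.595 on WPI and 1.74 on CAS (adjusted p = 0.0035 and 0.00028). For Itln1, Ang4 and Defa24 the differences were smaller, from -0.26 to -0.09, and 3 of the 6 passed: Ang4 on WPI (-0.13, adjusted p = 0.017), Defa24 on WPI (-0.26, 0.027) and Itln1 on CAS (-0.09, 0.046).

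Taking 1 mean per identifier stem (4 against 4) gave an exact two-sided permutation p of 0.029 for Mptx1, Mptx2, Mmp7, Defa29 and Defa34 on both proteins, which is the smallest that design allows, and the stem means did not overlap. For Ang4, Itln1 and Defa24 the exact p was 0.086 to 0.4 and the stem means overlapped.

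**Figure D3:**
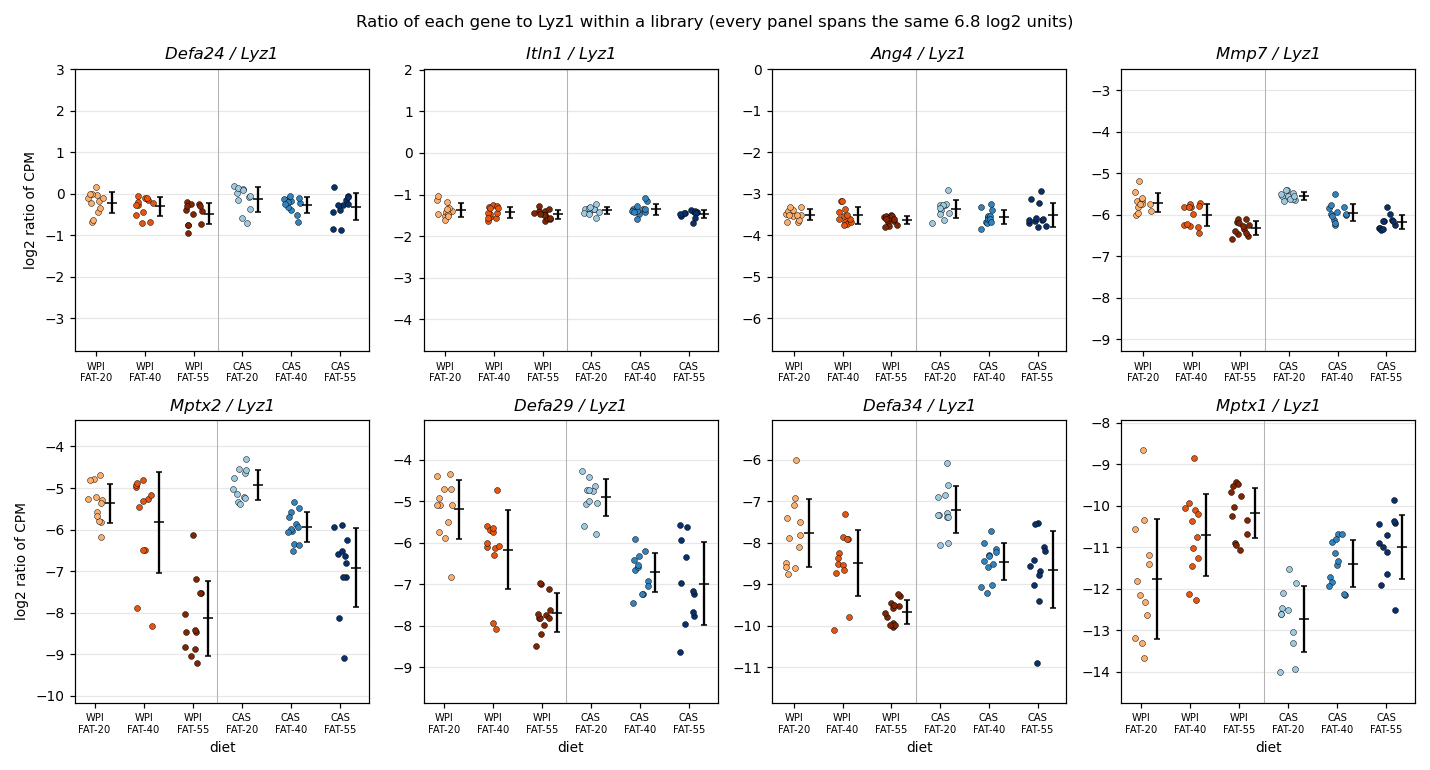
Log2 ratio of each gene's CPM to that of Lyz1 in the same library, by diet, with mean ± SD beside the points; every panel spans the same height. Defa24, Itln1 and Ang4 differ by -0.26 to -0.09 on average between FAT-55 and FAT-20, Mptx2, Defa29 and Defa34 by -2.77 to -1.45, and Mptx1 by 1.595 to 1.74.

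As a description over the 70 libraries, which share diets, the Spearman rho was 0.981 between Lyz1 and Ang4, 0.98 between Lyz1 and Itln1 and 0.95 between Lyz1 and Defa24. Defa29 was most like Defa34 (0.96), and Mptx2 most like Defa29 (0.928). Mptx1 had a negative rho with all 8 others, from -0.438 with Mptx2 to -0.171 with Lyz1. Once each diet's mean was taken away those values of Mptx1 lay between -0.0224 and 0.207, whereas Lyz1 and Ang4 were still at 0.977. Whether the Mptx1 reads come from Paneth cells was not tested. Single libraries stood apart in most of the genes. In WPI FAT-20 replicate 10 the sum was 1561 CPM, the lowest of all, with Lyz1 at 615 and Mptx2 at 12.9 CPM but Mptx1 at 1.51 CPM, near its group median of 1.56. In WPI FAT-40 replicate 12 the sum was 2219 CPM, and Mptx2, Mmp7, Defa29 and Defa34 had their lowest values of all 70 libraries there.

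Outside the 9, 10 genes followed their mean level most closely over the 70 libraries, with a Spearman rho of 0.934 to 0.966 to the mean of the standardised log2 CPM. They were Gm14851, Gm15292, Defa26, Defa5, AY761184, Samd5, Defa20, Defa21, Wnt3 and Habp2. Of these, 4 carry Defa symbols, Gm14851 and Gm15292 are on the wider list of Paneth cell products below, and Wnt3 is the Wnt ligand that Paneth cells supply to stem cells. Defa29 shares runs of 50 bases with Gm14851 and AY761184, and Defa34 with Defa5. Part of their likeness to the 9 may thus come from shared reads, which was not tested. The 10 genes were picked over libraries that include the diet differences, so a drop with fat like that of the 9 was partly built in. With each diet's mean taken away, their rho was 0.872 to 0.963, and 0.907 for Wnt3. Wnt3 fell by 0.89 ± 0.23 on the log2 scale in WPI FAT-55 against WPI FAT-20 (adjusted p = 0.0022). In CAS FAT-55 against CAS FAT-20 it fell by 0.62 ± 0.24 (adjusted p = 0.044). Defa5 (-3.03 ± 0.49, adjusted p = 3.5e-06) and Defa20 (-4.68 ± 0.73, adjusted p = 1.8e-06) fell on WPI too.

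Other genes of a wider list of Paneth cell products fell too. Of 51 listed products, 38 were in the table, 29 were tested and 20 of those are outside the 9. On WPI, 16 of the 20 fell and 0 rose at FAT-55 against FAT-20, where 16.6% of all genes were called lower. The median log2 fold change of the 20 was -1.32, against -0.0308 over all genes. On CAS, 13 of the 20 fell and 0 rose (median -1.01 against -0.00878), where 13.3% of all genes were called lower. At FAT-40 against FAT-20 15 fell on CAS and 4 on WPI, and none rose on either. The shares of all genes called lower there were 12.4% on CAS and 13% on WPI, so the WPI count was near the share. WPI FAT-55 against CAS FAT-55 gave 7 lower and 0 higher, where 2.81% of all genes were called lower. The smallest adjusted p values on WPI belonged to Defa32 (-5.39 ± 0.81, adjusted p = 1e-06), Defa35 (-4.94 ± 0.75, 1.2e-06) and Defa20. On CAS they belonged to Gm7861 (-1.39 ± 0.31, adjusted p = 0.00054), Gm7849 (-2.59 ± 0.58, 0.00065) and Defa32 (-2.67 ± 0.65, 0.0015). Defa32 is scarce, with medians of 0.0451 CPM in WPI FAT-55 and 2.85 CPM in WPI FAT-20, and near-identical copies limit every count in the cluster. Among those that did not pass, Defa30 had medians of 853.7 CPM in WPI FAT-55 and 1391 in WPI FAT-20, and 1268 in CAS FAT-55 and 1371 in CAS FAT-20, with log2 fold changes of -0.43 ± 0.21 on WPI (adjusted p = 0.11) and 0.07 ± 0.22 on CAS (0.84).

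**Figure D4:**
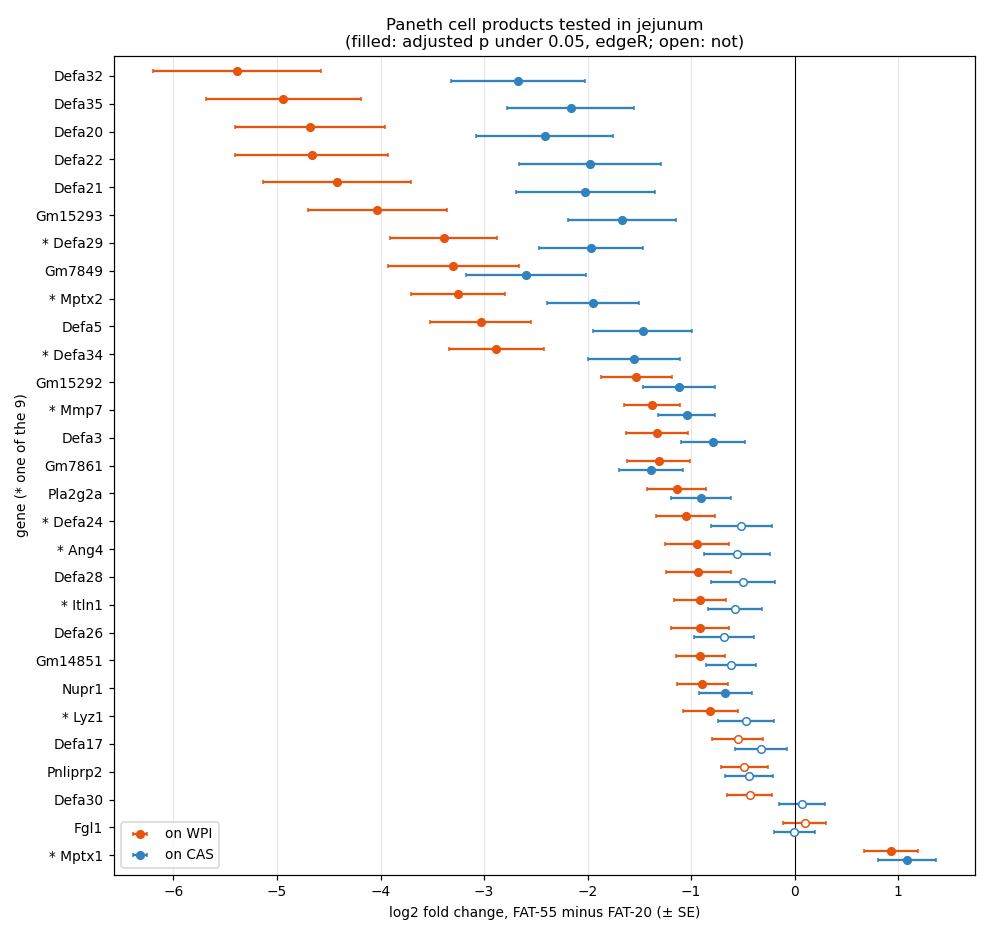
Log2 fold change ± SE for FAT-55 minus FAT-20 on WPI (orange) and on CAS (blue) of the 29 Paneth cell products tested, sorted by the WPI value, with an asterisk at the 9 genes and a fill where the adjusted p was under 0.05. Defa32 lies farthest left at -5.39 on WPI, and Mptx1 farthest right.

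Genes that specify Paneth cells and form their niche were counted apart. Of 21 tested, 5 fell and 1 rose on WPI for FAT-55 against FAT-20 (median log2 fold change -0.15), and 6 fell and 0 rose on CAS (-0.27). Called genes were thus 6 of 21 on each protein, near the 30.8% (WPI) and 27.7% (CAS) of all genes called in either direction. Most of these calls were drops, where 16.6% (WPI) and 13.3% (CAS) of all genes were called lower. Whether the list differed from these shares was not tested. On WPI the 3 with the smallest adjusted p were Copz2 (-0.90 ± 0.18, adjusted p = 1e-04), the receptor gene Kit (-0.57 ± 0.12, 0.00025) and Spdef, a transcription factor of secretory cells (-0.48 ± 0.12, 0.0013). On CAS they were the Notch ligand Dll4 (-0.38 ± 0.09, adjusted p = 0.0016), Xbp1, a factor of the unfolded protein response (-0.27 ± 0.07, 0.0019), and its activator Ern2 (-0.42 ± 0.12, 0.0064). Of 14 genes of granule handling and sensing, 1 fell and 2 rose on WPI, and 2 fell and 2 rose on CAS. In either direction this list was thus not called more often than all genes on WPI, and about as often on CAS. The secretory cell factor Bhlha15 was among those that fell, by 0.74 ± 0.19 on WPI (adjusted p = 0.0015) and by 0.77 ± 0.19 on CAS (adjusted p = 0.002). The autophagy gene Atg5 rose by 0.27 ± 0.05 on WPI (adjusted p = 8.9e-05).

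Markers of other cells were counted for FAT-55 against FAT-20 too. Of all genes, 16.6% were called lower and 14.2% higher on WPI, and 13.3% lower and 14.4% higher on CAS. Whether a list differed from these shares was not tested. All 10 smooth muscle markers fell on WPI at FAT-55 against FAT-20 and 8 of 10 on CAS. Their summed level ran from 338 to 1398 CPM in WPI FAT-55 against 860 to 4204 CPM in WPI FAT-20, and from 382 to 1340 CPM in CAS FAT-55 against 913 to 1687 CPM in CAS FAT-20. Of 7 fat cell markers 6 fell on WPI and 5 on CAS, with sums of 80.6 to 169 CPM in WPI FAT-55 against 122 to 651 CPM in WPI FAT-20, and 78.8 to 152 CPM in CAS FAT-55 against 84.5 to 438 CPM in CAS FAT-20. The covariate fits above give the calls left once these scores were held constant. Of 8 distal small intestine markers, 6 fell and 1 rose on WPI and 1 fell on CAS, with sums of 412 to 1032 CPM in WPI FAT-55 against 668 to 2133 CPM in WPI FAT-20, and 453 to 863 CPM in CAS FAT-55 against 399 to 1051 CPM in CAS FAT-20. Without the 2 libraries high in Fabp6, all 9 genes passed on WPI as before. Markers of the proximal small intestine moved the other way on both proteins: of 9 tested, 5 rose and 0 fell on WPI and 4 rose and 1 fell on CAS, Fabp1 by 0.82 ± 0.18 on WPI (adjusted p = 0.00042) and by 0.90 ± 0.19 on CAS (0.00038). Their summed level ran from 6203 to 8965 CPM in WPI FAT-55 (median 7452) against 3289 to 9354 CPM in WPI FAT-20 (4788), and from 4098 to 8722 CPM in CAS FAT-55 (6157) against 2501 to 5435 CPM in CAS FAT-20 (3861). At FAT-40 the medians were 6627 CPM on WPI and 6141 CPM on CAS, with 5 and 4 of 9 markers up and 0 down against FAT-20. Of all genes, 12.7% were called higher there on each protein. Fabp1 is also on the enterocyte list. The proximal list shares further genes with the enterocyte and enteroendocrine lists, so the counts of these lists are not independent. The part of the distal and proximal lists in the drop of the Paneth cell genes was not tested. Of 11 B and plasma cell markers, 5 fell on WPI and 4 on CAS, and none rose. Igha, the heavy chain of IgA, fell by 0.76 ± 0.20 on WPI (adjusted p = 0.0021) and by 0.97 ± 0.21 on CAS (0.00036). Their sums had a median of 5458 CPM in WPI FAT-55 (3653 to 6828) against 8850 in WPI FAT-20 (4391 to 14070), and of 6242 CPM in CAS FAT-55 (993 to 13200) against 13310 in CAS FAT-20 (6434 to 21220). Of 12 enteroendocrine markers, 8 rose and 1 fell on WPI and 9 rose on CAS, with sums of 424 to 558 CPM in WPI FAT-55 against 303 to 505 CPM in WPI FAT-20, and 372 to 591 CPM in CAS FAT-55 against 234 to 430.0 CPM in CAS FAT-20. Of 14 enterocyte markers, 6 rose and 2 fell on WPI and 7 rose and 2 fell on CAS, and of 10 T cell markers none passed on either. Intestinal stem cell markers gave 2 lower and 1 higher of 11 on WPI, and 3 lower and 1 higher on CAS. These counts were near the 30.8% (WPI) and 27.7% (CAS) of all genes called in either direction. Of 12 proliferation markers 1 rose and 0 fell on each protein, below those shares. The part of these cell types in the result was not tested. Goblet cell markers, of the other secretory lineage, fell in 4 of 11 cases on each protein. Their sums overlapped, at 4670 to 7775 CPM in WPI FAT-55 against 5188 to 10930 CPM in WPI FAT-20, and their part in the result was not tested. Scaled to pan-epithelial genes in place of all genes, 9 of the 9 passed on WPI and 5 of the 9 on CAS for FAT-55 against FAT-20. On WPI at FAT-40, 6 of the 9 fell (Lyz1, Itln1, Mmp7, Defa24, Defa29 and Defa34) and Mptx1 did not pass. That fit called 3690, 2531 and 7675 genes in all in these comparisons, against 5231, 4711 and 4378 with the main scaling. That scaling moved the median log2 fold change of all genes to -0.139 for WPI FAT-55 and -0.275 for WPI FAT-40, each against WPI FAT-20.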

How the data were processed

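Jejunum tissue of 70 mice was sequenced as total RNA. The authors deposited counts, whole reads per gene with no scaling, for 55536 genes. The submitters' processing notes name STAR, cutadapt, Trim Galore 0.61, FastQC and DESeq2 1.24.0, and the build GRCm38. Annotation release, strand setting and STAR version are not given in the sources used here. Entries that name no gene stayed out of library sizes (3.45% of reads unmapped, 8.0038% matching several places, 6.34% outside genes, 5.23% ambiguous). Depth was 17.502 to 23.808 M reads on genes.

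Diet labels alone set the groups. After filterByExpr (at least 10 reads, 15 in total) and TMM scaling, a quasi-likelihood model in edgeR 4.0.16 (R 4.3.3) with a term for each diet was tested by F statistics. P-values were adjusted by Benjamini-Hochberg over 16992 genes within each of 12 comparisons and not across them, and a standard error is the log2 fold change over the root of F. P-values measure the spread between these libraries. The model was checked on simulated data. Coordinates come from GENCODE M21, promoters from RefSeq (GRCm38.p6). The limit of a count of 0 covers counting error only. Ratios were tested with scipy 1.17.1. The 9 genes, the lists and the tests were chosen with earlier results of these data known. Named are the 9 genes, in each list up to 3 genes with the smallest adjusted p, and the 10 genes most like the 9; Defa30, Reg3a, Adipoq and Fabp6 were picked with their values seen. Alternatives were DESeq2 1.42.0, another scaling (median of ratios), all genes unfiltered, sums over the libraries of a stem, limma 3.58.1 voom with stem as a random effect, covariates for fat cell and muscle markers, library sizes from pan-epithelial genes, and each library left out in turn. The fit without 2 libraries high in Fabp6 and the ratios to Lyz1 were added after seeing the data.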

Additional observations from a re-analysis of the deposited data

Results flagged for a closer look

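In liver, which the comparisons do not use, 2 of the 9 genes had reads above the 3 that a count of 0 allows. Lyz1 reached 89 reads in WPI FAT-20 replicate 3, and 9 of 70 libraries held more than 3 reads, with a median of 2. Mmp7 reached 74 reads in WPI FAT-20 replicate 7, and 8 of 70 libraries held more than 3 reads, with a median of 1. In the same liver libraries the defensins, Mptx1 and Mptx2 had 0 reads.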

How the results depend on the processing

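The 30 calls among the 9 genes in 12 comparisons kept their direction under all 8 alternatives run. Calls lost were 20 with the marker covariates, 16 with a random effect for stem, 10 in sums by stem, 4 with pan-epithelial library sizes, 2 each with median-of-ratios scaling and without the filter, 1 with DESeq2 and 1 without the libraries high in Fabp6. For WPI FAT-55 against WPI FAT-20, 9 genes passed, then 9 in stem sums, 5 with the random effect and 1 with the covariates. For CAS FAT-55 against CAS FAT-20, 5 passed, and 2 with the covariates. CAS FAT-40 against CAS FAT-20 gave 7, then 4 in stem sums, 4 with the random effect and 0 with the covariates. WPI FAT-40 against WPI FAT-20 gave 1, then 0 with the random effect, 0 with the covariates and 6 with pan-epithelial library sizes. The fit with pan-epithelial library sizes called 7675 genes in all there, against 4378 in the main fit. WPI FAT-55 against WPI FAT-40 gave 3, and 0 in stem sums and with the random effect. WPI against CAS at FAT-55 gave 3, and 0 in stem sums and with the random effect. WPI against CAS over the fat levels gave 2, then 1 in stem sums and 0 with the random effect. The cause of these losses was not tested. Leaving out 1 library gave 9 (WPI FAT-55 against WPI FAT-20), 5 to 8 (CAS FAT-55 against CAS FAT-20), 4 to 8 (CAS FAT-40), 0 to 4 (WPI FAT-40), 1 to 3 (WPI FAT-55 against WPI FAT-40), 2 to 3 (WPI against CAS at FAT-55) and 1 to 3 (over the fat levels), and 0 in the 5 other comparisons. Of 78 values that were not called, 18 changed sign under some alternative, the largest of them 0.512 in size. No paired analysis was possible because the labels give no replicate number that diets share. Depth limits Mptx1 most (a median of 36 reads), and near-identical copies limit Defa34 most (16% of its transcript runs in no other gene).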

Other observations

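Antimicrobial genes outside the list of Paneth cell products also moved with fat, and this further list is not limited to 1 cell type. Of 15 tested, 8 fell and 1 rose in WPI FAT-55 against WPI FAT-20, and 7 fell and 3 rose in CAS FAT-55 against CAS FAT-20. Of all genes, 16.6% were called lower and 14.2% higher on WPI, and 13.3% lower and 14.4% higher on CAS. The lectin gene Reg3g changed by -3.86 ± 0.57 on WPI (log2 fold change, SE, edgeR adjusted p = 7.9e-07), Reg3b by -3.54 ± 0.53 (9.4e-07) and Nos2, which makes nitric oxide, by -5.0004 ± 0.78 (2e-06). On CAS the acute phase gene Saa1 changed by -5.35 ± 0.75 (adjusted p = 4.1e-07) and the protease inhibitor gene Slpi by -1.15 ± 0.20 (1.4e-05). Reg3a, a relative of Reg3b and Reg3g, rose on both proteins, by 1.22 ± 0.22 on WPI (adjusted p = 1.7e-05) and by 1.5 ± 0.23 on CAS (3e-06).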
